A study of Mus musculus with 6 samples.

Results

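The BCL2 family genes Bcl2, Bcl2l1, Mcl1, Bcl2a1a, Bcl2a1b, Bcl2a1d, Bcl2l11, Bbc3, Pmaip1 and Bax were examined in activated mouse B cells that had or lacked the aryl hydrocarbon receptor (AhR), a ligand-activated transcription factor. These 10 members were taken by gene symbol, each matching 1 of the 23420 rows of the count table, and all 10 had enough counts to be tested. B lymphocytes came from the spleens of 3 Ahr+/+ and 3 Ahr-/- mice, 1 library per mouse, all labelled with the background strain C57Bl/6J, and the study's mice were older than 8 weeks. Cells of both genotypes were cultured for 8 h with 10 µg/ml α-IgM, which engages the B-cell receptor, and 20 ng/ml IL-4, and both received 250 nM of the AhR ligand FICZ for the final 4 h. The Ahr-/- mice of the study (B6.129-Ahr tm1Bra/J in the study's methods) carried the deletion in all tissues, so the B cells had developed without AhR and in an AhR-deficient animal. No unstimulated or ligand-free libraries were analysed here, and the comparison is therefore between genotypes under a single treatment.

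BCL2 family proteins decide whether the outer mitochondrial membrane is permeabilised, the step that commits most cells to apoptosis. Pro-survival members (BCL-2, BCL-XL encoded by Bcl2l1, MCL-1 and A1 encoded by the Bcl2a1 genes) bind and restrain the pore-forming proteins BAX and BAK. BH3-only proteins (BIM encoded by Bcl2l11, PUMA encoded by Bbc3, and NOXA encoded by Pmaip1) occupy the groove of the pro-survival proteins or activate BAX and BAK directly. In B cells, B-cell receptor engagement is known to induce A1 and BCL-XL through NF-κB, MCL-1 is needed for survival of activated B cells, and BIM is the main BH3-only protein that removes self-reactive and surplus B cells.

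Among pro-survival members, Bcl2a1b and Bcl2l1 were each 1.56-fold, Bcl2a1d was 1.71-fold and the sparsely counted Bcl2a1a 2.37-fold higher in Ahr-/- B cells, Mcl1 was 1.11-fold higher and Bcl2 did not pass the test. Among death-promoting members, Bcl2l11 was 1.18-fold higher, while Bax, Bbc3 and Pmaip1 did not pass it. By edgeR's quasi-likelihood test with Benjamini-Hochberg adjustment over 13682 genes at a threshold of 0.05, 6 of the 10 members were called, all 6 higher in Ahr-/- B cells and 0 lower. Of all tested genes, 17.9% were called, 9.79% as higher and 8.13% as lower in Ahr-/- B cells. Every Ahr-/- library lay above every Ahr+/+ library for 7 members (the 6 called and Bax), a pattern shown by 17.7% of all tested genes. No member had the opposite arrangement, which 15.8% of tested genes showed, and the remaining 3 overlapped between genotypes. The median log2 fold change was 0.20 over the 10 members and 0.0021 over all tested genes. The called Bcl2a1a, Bcl2a1b and Bcl2a1d are near-identical copies that may share reads, so their calls are not separate results. This bears on the counts and the median above. The members are no random draw of genes, and these counts describe them without a test of the list.

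The Bcl2a1 genes are near-identical copies on chromosome 9 of GRCm38, and their sequences bear on how their counts can be read. In the GENCODE annotation, the transcripts of Bcl2a1b and Bcl2a1d were 99.1% identical, with 7 differing positions. Bcl2a1a and Bcl2a1d were 98.8% identical, with 10 differing positions, and Bcl2a1a and Bcl2a1b were 98.2% identical, with 15. Of all stretches of 50 bases in a transcript, 57.6% for Bcl2a1b, 79.5% for Bcl2a1d and 69.0% for Bcl2a1a also occurred in another copy. For stretches of 100 bases these shares were 31.1%, 54.7% and 43.5%. The read length is not given in the sources used here. Reads from such stretches cannot be assigned to 1 copy, and the single rows are uncertain for that reason. The copies were also alike around the RefSeq start. The window of 29 bases around the single aryl hydrocarbon response element core (GCGTG, read here as CACGC on the gene's strand) in the Bcl2a1b promoter is shown with the aligned stretch of Bcl2a1d and Bcl2a1a, capitals marking the core or the bases aligned to it, because Bcl2a1a differs from the other copies in that core.
Bcl2a1b, chr9:89199183-89199211, plus strand: tcacagaccgccCACGCacataagtgacg
Bcl2a1d, chr9:88731868-88731896, minus strand: tcacagaccgccCACGCacataagtgacg
Bcl2a1a, chr9:88956874-88956902, plus strand: tcacagaccgccCATGCacataagtgacg
Bcl2a1a carries the substitution C15T relative to Bcl2a1b, counted from 1 at the 5′ end of the window, and its promoter window held no core. The RefSeq promoter windows used (GRCm38.p6) run from 250 bases before to 50 bases after each annotated start. The core lay 78 bases before the RefSeq start of Bcl2a1b and 34 bases before that of Bcl2a1d, where the GENCODE gene model starts earlier and contains it. Bcl2a1c has the same 29 bases as Bcl2a1b, with the core 144 bases before its RefSeq start.

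Cores of other called members are shown for comparison. Bcl2l1 has 3 RefSeq promoter windows, of which 2 held a core, 1 before and 1 after its annotated start.
Bcl2l1, chr2:152831798-152831826, minus strand, core 86 bases before the start: ccataaacgttcCACGCgcctgagactcc
Bcl2l1, chr2:152830678-152830706, minus strand, core 23 bases after the start: gagagccaagggGCGTGctagagcgaggg
Bcl2l11 held 3 cores in 1 of its 2 windows, the nearest to the start being the following.
Bcl2l11, chr2:128125880-128125908, plus strand, core 146 bases before the start: tgtcgcagcctgCACGCgccagcggcctg
Bbc3, which was not called, held cores in each of its 3 windows, and the windows of Mcl1, Bcl2, Bax and Bcl2a1a held none. On either strand, 32.4% of all 32851 promoter windows held GCGTG, so a match is common. A STAT motif was searched as TTC and GAA with 3 bases between them, present in 8.30% of all windows, and with 4 bases between them, present in 6.95%. The windows of the 9 members searched (Pmaip1 was not) held a single match, with 4 bases between, in 1 window of Bcl2l1. A match of letters is a description and no evidence of binding, and AhR occupancy was not measured in these libraries.

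The libraries held between 22095096 and 53648787 counts, the shallowest and the deepest both being Ahr-/-. Levels are given in CPM, each count relative to its library's total after TMM scaling, which adjusts that total for composition, and a floor of 3 counts corresponded to 0.0555 to 0.134 CPM (counting error only). The labels were checked with Ahr, which was 330, 335 and 363 CPM in Ahr+/+ against 230, 233 and 253 CPM in Ahr-/- libraries, and with the AhR target Cyp1a1, which was 129 to 141 CPM against 0.0740 to 0.179 CPM. Of 10 B-cell markers, 6 were higher and 1 lower in Ahr-/- libraries, with summed levels of 3076 to 3308 against 3625 to 3850 CPM. Cd79b, a B-cell receptor chain, had 538 to 593 against 707 to 744 CPM. Of 10 plasmacytoid dendritic cell markers, 8 were higher and 1 lower, with sums of 890 to 938 against 1073 to 1096 CPM. Most of these sums came from Irf8, with 588 to 622 against 744 to 782 CPM. Tcf4, the lower marker, came next with 188 to 205 against 115 to 126 CPM. Siglech, the defining gene of this cell type, had 1.36 to 1.58 against 6.14 to 7.81 CPM. Of 9 conventional dendritic cell markers, 5 were higher and 1 lower, with sums of 50.7 to 59.8 against 62.9 to 69.9 CPM. Of 9 macrophage and monocyte markers, 2 were higher and 1 lower, with sums of 32.2 to 40.8 against 18.1 to 32.9 CPM. The lower one, Emr1, had 16.5 to 17.2 against 0.925 to 1.65 CPM, while the median log2 fold change of that list was 0.73. Of 7 NK-cell markers, 2 were higher. Of 9 T-cell markers, 1 was higher and 1 lower, none of 7 neutrophil markers was called, and among 5 plasma-cell markers 2 were higher and 2 lower. No marker of the plasmacytoid or conventional dendritic cell list was at 0 in any library. Of all tested genes, 9.79% were called higher and 8.13% lower. The part of these markers in the differences of the BCL2 family was not tested. In bulk libraries such as these, fewer cells of a type and less RNA per cell cannot be told apart.

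Bcl2a1b took most of the counts of the A1 copies. Its level was 56.5, 55.1 and 57.3 CPM in Ahr+/+ B cells against 92.6, 84.4 and 86.5 CPM in the Ahr-/- libraries. The genotypes were far apart, and the gap between the highest Ahr+/+ and the lowest Ahr-/- library exceeded the range within either genotype. The means were 56.3 ± 1.11 and 87.8 ± 4.24 CPM (SD, n = 3 mice each), a log2 fold change of 0.64 (95% interval 0.55 to 0.73, adjusted p = 5.1e-07 by edgeR). This and the following intervals are not adjusted for the number of genes tested. Bcl2a1b had the smallest p-value of the members and ranked 109 among all tested genes. Bcl2a1d had 17.1, 17.0 and 17.0 CPM in Ahr+/+ against 31.0, 29.4 and 27.4 CPM in the Ahr-/- libraries. Here too the genotypes were separate, with a nearly constant level in Ahr+/+ B cells. This gave a log2 fold change of 0.78 (95% interval 0.65 to 0.90, adjusted p = 1.1e-06 by edgeR), or 1.71-fold.

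Bcl2a1a was close to the limit of detection. It received 5, 8 and 5 counts in Ahr+/+ B cells against 9, 25 and 12 in Ahr-/- B cells, which correspond to 0.126, 0.209 and 0.146 CPM and to 0.402, 0.462 and 0.285 CPM. All Ahr-/- values were above all Ahr+/+ values, although the interval of the log2 fold change (1.24) was wide, from 0.40 to 2.09, with an adjusted p of 0.044 by edgeR. That call was lost under the DESeq2 Wald test (adjusted p = 0.20), with the replicate number as a block (adjusted p = 0.066) and without any 1 of 5 of the 6 libraries, Ahr-/- replicate 3 being the exception (adjusted p from 0.051 to 0.22). To avoid the division of reads among copies, the rows of Bcl2a1a, Bcl2a1b, Bcl2a1c and Bcl2a1d were also summed. The sum was 74.2, 72.8 and 74.7 CPM in Ahr+/+ against 125, 115 and 115 CPM in the Ahr-/- libraries. As with the main copy, the groups were widely separated. The log2 fold change of the sum was 0.68 (SE 0.042, adjusted p = 2.5e-07 by edgeR). Each summed row was itself higher in every Ahr-/- library, so a higher sum followed from the rows and adds no separate support. Whether the treatment of reads shared between copies shaped the difference was not tested. Bcl2a1b supplied 75.7 to 76.7% of the summed counts in Ahr+/+ and 73.3 to 75.3% in Ahr-/- libraries, and Bcl2a1d 22.8 to 23.3% and 23.9 to 25.6%.

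Bcl2l1, whose main product BCL-XL sustains survival after antigen-receptor signalling, had 69.0, 75.5 and 73.3 CPM in Ahr+/+ B cells against 106, 116 and 117 CPM in the Ahr-/- libraries. The genotypes did not overlap, and the gap between them was larger than the range within either. The means were 72.6 ± 3.28 and 113 ± 6.09 CPM (SD, n = 3 mice each), a log2 fold change of 0.64 (95% interval 0.54 to 0.75, adjusted p = 1.4e-06 by edgeR). The counts cover the whole gene, and which splice form the reads came from, the long BCL-XL or the short, death-promoting BCL-XS, was not resolved.

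Mcl1, the gene of a short-lived pro-survival protein, had 427, 400 and 407 CPM in Ahr+/+ against 458, 456 and 457 CPM in the Ahr-/- libraries. The Ahr-/- libraries were almost equal to one another and all above the Ahr+/+ libraries, by a margin similar to the range of the latter. This was a small difference, with a log2 fold change of 0.15 (95% interval 0.07 to 0.23, adjusted p = 0.0096 by edgeR). Bcl2 itself had 19.3, 20.4 and 19.4 CPM in Ahr+/+ against 20.3, 20.5 and 19.0 CPM in the Ahr-/- libraries. These ranges overlapped almost wholly. The log2 fold change was 0.02, with a 95% interval of −0.11 to 0.14 that holds differences of either sign, and an adjusted p of 0.88 by edgeR.

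**Figure D1:**
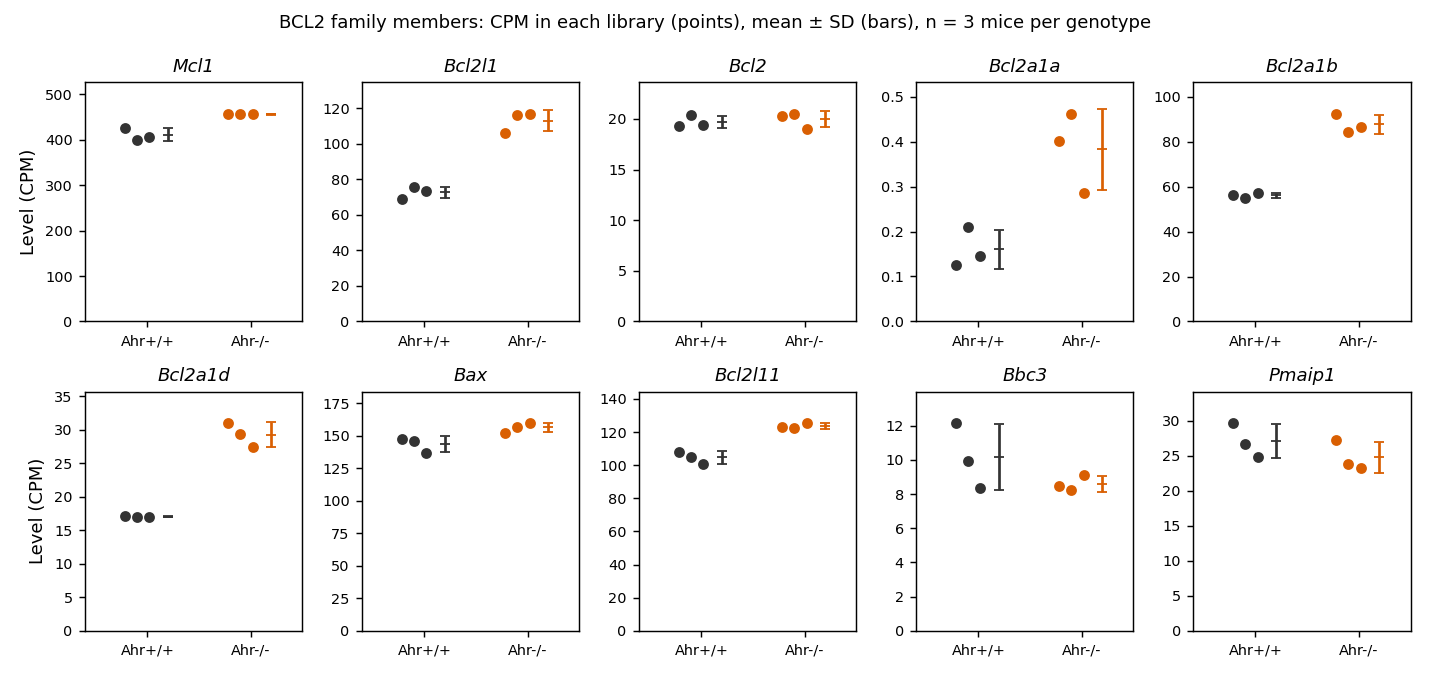
Level (CPM, linear axis from 0) of each of the 10 members in the 3 Ahr+/+ (black) and 3 Ahr-/- (orange) libraries, shown as points, with the mean ± SD beside them. Mcl1, Bcl2l1, Bcl2a1a, Bcl2a1b, Bcl2a1d, Bcl2l11 and Bax show no overlap between genotypes, whereas Bcl2, Bbc3 and Pmaip1 do.

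Bcl2l11, the gene of BIM, had 108, 105 and 101 CPM in Ahr+/+ B cells against 123, 122 and 126 CPM in the Ahr-/- libraries. All Ahr-/- libraries were higher, and the gap exceeded the range within each genotype. The means were 105 ± 3.69 and 124 ± 1.67 CPM (SD, n = 3 mice each), a log2 fold change of 0.24 (95% interval 0.15 to 0.33, adjusted p = 9.4e-04 by edgeR). Thus a death-promoting gene was higher in the same libraries as Bcl2l1, Bcl2a1b and Bcl2a1d, whose intervals lay wholly above that of Bcl2l11. That order was read from the intervals and no test between genes was made.

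Bbc3, the gene of PUMA and a p53 target, had 12.2, 9.95 and 8.33 CPM in Ahr+/+ against 8.48, 8.21 and 9.11 CPM in the Ahr-/- libraries. Ahr+/+ replicate 1 was the highest and the ranges overlapped. The log2 fold change was −0.24 (95% interval −0.50 to 0.02, adjusted p = 0.20 by edgeR). The value rested on single Ahr+/+ libraries, being −0.09 without replicate 1 and −0.36 without replicate 3, where it passed the threshold (adjusted p = 0.044 by edgeR). Pmaip1, the gene of NOXA, which chiefly neutralises MCL-1 and A1, had 29.7, 26.7 and 24.9 CPM in Ahr+/+ against 27.3, 23.8 and 23.3 CPM in the Ahr-/- libraries. Again the ranges overlapped. Its log2 fold change was −0.14 (95% interval −0.30 to 0.02, adjusted p = 0.23 by edgeR). The unadjusted intervals of Bbc3 and Pmaip1 reached further into decreases than into increases. Both depended on Ahr+/+ replicate 1, without which the log2 fold change of Pmaip1 was −0.07.

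Bax, the pore-forming effector, had 148, 146 and 137 CPM in Ahr+/+ B cells against 152, 157 and 160 CPM in the Ahr-/- libraries. The values did not overlap, but the gap was narrower than the range within either genotype. The log2 fold change was 0.12 (95% interval 0.03 to 0.22), and the adjusted p was 0.056 by edgeR, just short of the threshold. Bax passed it with library size alone as the scaling (adjusted p = 0.019), with at least 10 counts required in at least 3 libraries (adjusted p = 0.049) and in DESeq2's test (adjusted p = 0.042). For single genes the two-sided exact permutation test of 3 mice against 3 cannot go below p = 0.1, the value it gave for each of the 7 members without overlap. It gave 0.9 for Bcl2, 0.3 for Bbc3 and 0.3 for Pmaip1.

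**Figure D2:**
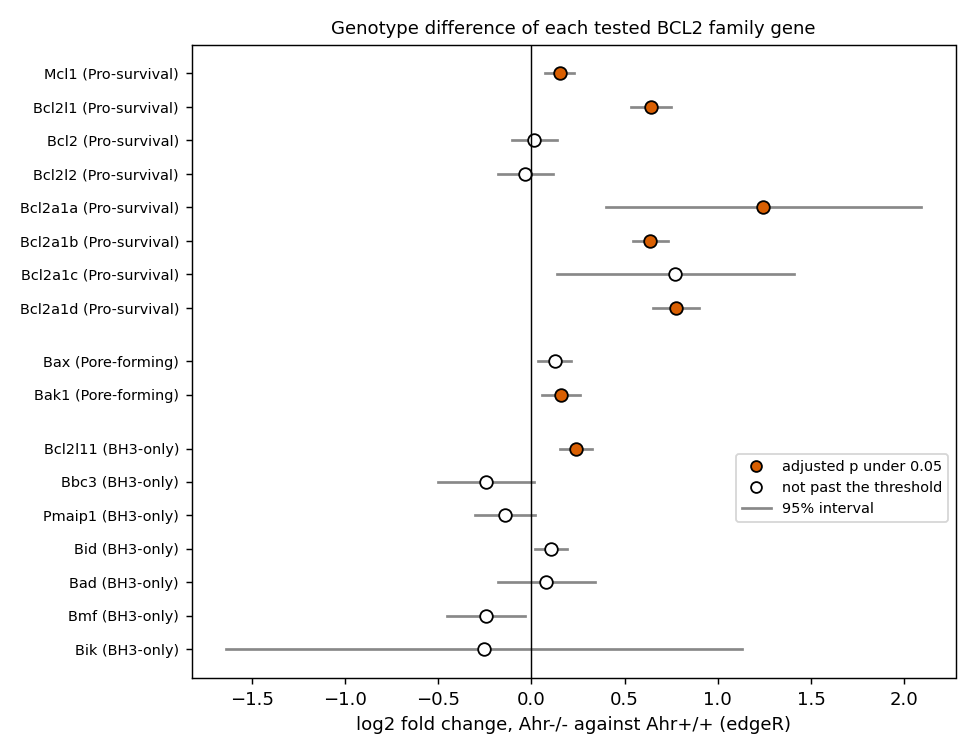
Log2 fold change of Ahr-/- against Ahr+/+ B cells (points) with 95% intervals (lines) for every tested BCL2 family gene, grouped by role, filled where the adjusted p was under 0.05. Bcl2a1b, Bcl2a1d and Bcl2l1 lie between 0.64 and 0.78 with narrow intervals, and Bcl2a1a at 1.24 has the widest among the members.

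Levels of different genes were compared only after division by the length of the annotated exons, as CPM per kilobase. In Ahr+/+ B cells Mcl1 came first at 120 ± 4.08 CPM per kilobase, followed by Bax at 91.0 ± 3.81 and Bcl2a1b at 68.9 ± 1.36 (SD, n = 3 mice). Bcl2a1d at 19.7 ± 0.0847, Bcl2l1 at 15.8 ± 0.715 and Bcl2l11 between 12.6 and 13.5 formed a middle group. Pmaip1 at 9.92, Bbc3 at 4.78, Bcl2 at 2.15 and Bcl2a1a at 0.196 CPM per kilobase were lowest. In Ahr-/- B cells the order was the same except that Bcl2a1b, at 107 ± 5.19 CPM per kilobase, stood above Bax at 99.2 ± 2.39. No neighbours in either order overlapped between libraries. With the length of the longest transcript in place of all exons, Bax came before Mcl1. In Ahr+/+ B cells the libraries of these genes then overlapped, at 124 to 134 against 117 to 125 CPM per kilobase. By that length Bcl2a1b lay below both in either genotype (Bax at 142 CPM per kilobase in Ahr-/- B cells). The order among Bcl2a1d, Bcl2l1 and Bcl2l11 also changed, so ranks of genes with several transcripts depend on the length assumed. The levels of the Bcl2a1 genes are those of the reads that were counted, and they would be too low if reads shared between copies were discarded.

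**Figure D3:**
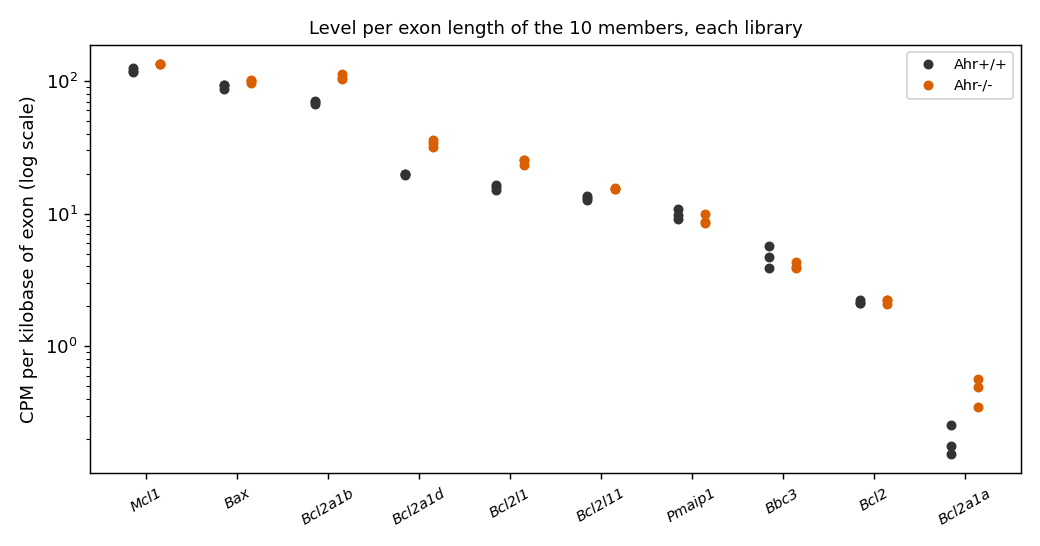
Level of each member per kilobase of annotated exon (CPM per kilobase, logarithmic axis) in each Ahr+/+ (black) and Ahr-/- (orange) library, ordered by the Ahr+/+ mean. Mcl1, Bax and Bcl2a1b are the most abundant by this measure and Bcl2a1a is the least.

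The make-up of the pro-survival transcripts differed between genotypes. Of the summed level per length of Mcl1, Bcl2l1, Bcl2 and the Bcl2a1 rows, Mcl1 held 54.0, 52.5 and 52.4% in Ahr+/+ B cells against 43.4, 44.6 and 44.7% in the Ahr-/- libraries. The Bcl2a1 rows held 38.5, 39.2 and 39.6% against 48.4, 46.2 and 46.1%. The share of Mcl1 was thus smaller in Ahr-/- B cells although the Mcl1 level itself was higher. The Bcl2a1 shares would be too low in both genotypes if reads shared between copies were discarded, so the order of Mcl1 over the Bcl2a1 rows in Ahr+/+ B cells is uncertain. Bcl2l1 held 6.97 ± 0.436% and 8.15 ± 0.588% (SD, n = 3 mice each), and Bcl2 0.948 ± 0.0457% and 0.720 ± 0.0275%. With the longest transcript as length, Mcl1 went from 50.1% to 41.5% and the Bcl2a1 rows from 37.0% to 44.0%. Shares sum to a fixed total, so these are not independent of one another and carry no test.

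**Figure D4:**
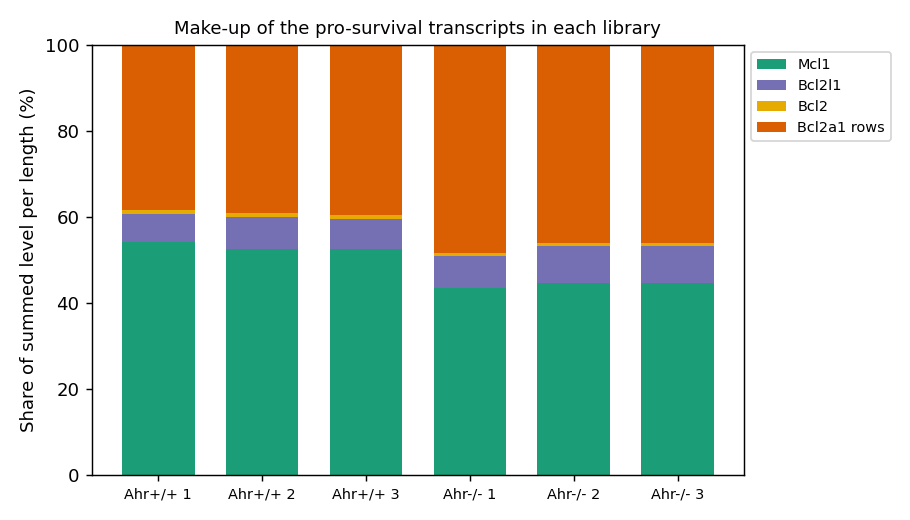
Share (%) of the summed level per kilobase of exon held by Mcl1, Bcl2l1, Bcl2 and the Bcl2a1 rows in each of the 6 libraries. The Bcl2a1 rows take 38.5 to 39.6% in the Ahr+/+ and 46.1 to 48.4% in the Ahr-/- libraries.

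Other genes of the family and of the pathway were taken from 7 lists holding 67 genes, of which 63 were tested. In all, 11 were higher, 4 were lower and 48 were not called in Ahr-/- B cells, again beside 17.9% of all tested genes called. Of the other pro-survival genes, neither tested gene was called, with Bcl2l2 at a log2 fold change of −0.03 (adjusted p = 0.80 by edgeR) and Bcl2a1c at 0.77 (adjusted p = 0.095 by edgeR). Bak1, the partner of Bax, was 59.0, 66.6 and 63.1 CPM in Ahr+/+ against 69.5, 72.0 and 68.6 CPM in the Ahr-/- libraries, a log2 fold change of 0.16 (adjusted p = 0.037 by edgeR). Its call was lost without Ahr+/+ replicate 1 or 3 or Ahr-/- replicate 1 or 2 (adjusted p from 0.061 to 0.17). None of 4 other tested BH3-only genes was called. Bid, which is cleaved by caspase-8, had a log2 fold change of 0.11 (adjusted p = 0.086), Bad 0.08 (adjusted p = 0.72) and Bmf −0.24 (adjusted p = 0.11, all by edgeR). Bok, Bcl2l10 and Hrk had too few counts to be tested. None of 9 BCL2-related genes was called.

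Of 17 genes of the apoptosome, the caspases and their inhibitors, 3 were higher and 0 lower, with a median log2 fold change of 0.03, a share called that is near the 17.9% of all tested genes. Casp6, an executioner caspase, rose from 102 ± 5.55 to 134 ± 2.25 CPM (SD, n = 3 mice each), a log2 fold change of 0.39 (adjusted p = 4.5e-05 by edgeR). Htra2, a mitochondrial protease that antagonises caspase inhibitors, had 0.18 (adjusted p = 0.011, and 0.059 without Ahr+/+ replicate 3). Casp9, the initiator caspase of the apoptosome, had 0.22 (adjusted p = 0.049), a call lost under 9 of the 13 alternative analyses, among them leaving out any library but Ahr+/+ replicate 2.

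Of 16 transcription factors known to act on the members, 3 were higher and 3 lower. Nfkb1, whose product p50 takes part in the induction of A1 and BCL-XL, had a log2 fold change of 0.20 (adjusted p = 0.0014 by edgeR), Nfkb2 0.11 (adjusted p = 0.045) and Stat5a, an activator of Bcl2l1 and Mcl1 downstream of cytokine receptors, 0.31 (adjusted p = 7.2e-04). In the other direction, Stat3 fell from 384 ± 23.8 to 278 ± 4.85 CPM (SD, n = 3 mice each), a log2 fold change of −0.47 (adjusted p = 1.0e-05 by edgeR). Stat6, the factor that conveys IL-4 signals, had −0.14 (adjusted p = 0.015, and 0.080 without Ahr-/- replicate 2), and Rela, the p65 subunit of NF-κB, −0.15 (adjusted p = 0.048). The call of Nfkb2 was lost without Ahr+/+ replicate 1 or 3 or Ahr-/- replicate 2 or 3 (adjusted p from 0.054 to 0.21), and that of Rela without any library but Ahr-/- replicate 3 (adjusted p from 0.056 to 0.19). Over all 13 alternative analyses, the call of Nfkb2 was lost under 6 and that of Rela under 9. Trp53, which controls Bbc3, Pmaip1 and Bax, had −0.02 (adjusted p = 0.81), with a sign that changed with library size alone as scaling (0.0047) and without Ahr-/- replicate 2 (0.02).

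Of 14 tested partners, kinases and ligases of the members, 4 were higher and 1 lower. Pim1, a survival kinase that phosphorylates BAD, rose from 114 ± 2.95 to 164 ± 2.32 CPM (SD, n = 3 mice each), a log2 fold change of 0.52 (adjusted p = 8.2e-07 by edgeR). Dynll2, the dynein light chain that tethers BMF, had 0.31 (adjusted p = 7.6e-04), Fbxw7, an E3 ligase component for MCL-1, 0.23 (adjusted p = 0.012), and Mapk3, the ERK1 kinase that marks BIM for degradation, 0.22 (adjusted p = 0.0034). Btrc, the gene of β-TrCP, an E3 ligase component that acts on MCL-1, BIM and IκB, fell from 49.8 ± 0.276 to 27.1 ± 1.22 CPM, a log2 fold change of −0.89 (adjusted p = 3.4e-08 by edgeR). Btrc and Pim1 kept their calls under all 13 alternatives, as did Casp6, Nfkb1, Stat3, Stat5a, Dynll2 and Mapk3.

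**Figure D5:**
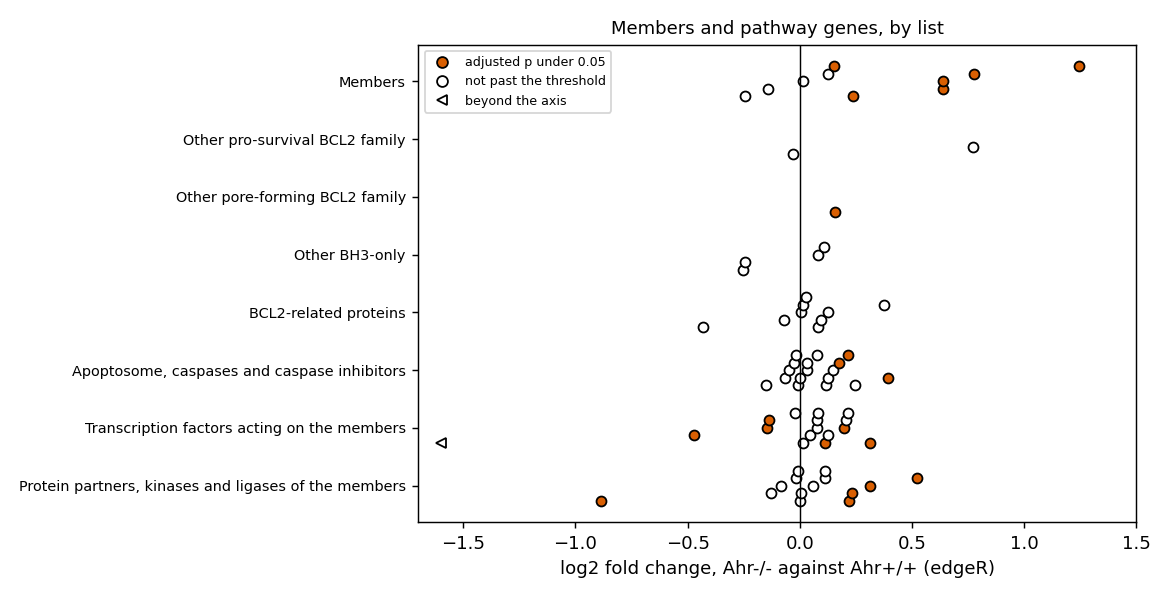
Log2 fold change of Ahr-/- against Ahr+/+ B cells for each tested gene of the members and of the 7 pathway lists, filled where the adjusted p was under 0.05, with 1 gene beyond the left end drawn as an arrowhead. Called genes lie on both sides of 0 among the transcription factors and partners, and only above 0 among the members and the caspase list.

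The genes whose profiles over the 6 libraries lay nearest to that of Bcl2a1b, by the distance between centred log2 CPM values, were Lacc1 (0.0594), Dlk1 (0.110) and Cecr2 (0.117). Lacc1 had 3.64, 3.40 and 3.51 CPM in Ahr+/+ against 5.89, 5.29 and 5.48 CPM in the Ahr-/- libraries, a log2 fold change of 0.65 (adjusted p = 8.8e-04 by edgeR). Cecr2 had 0.61 (adjusted p = 8.6e-06 by edgeR), while Dlk1, at under 1 CPM, had 0.69 and was not called (adjusted p = 0.062 by edgeR).

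In the annotation of GRCm38, Mcl1 lies on chr3:95658788-95663176, Bcl2 on chr1:106538178-106714274, Bcl2l1 on chr2:152780668-152831728 and Bcl2l11 on chr2:128126038-128162547. Bcl2a1a lies on chr9:88956900-88962419, Bcl2a1b on chr9:89199209-89207827 and Bcl2a1d on chr9:88723285-88731914. Bbc3 lies on chr7:16308393-16318205, Bax on chr7:45461697-45466898 and Pmaip1 on chromosome 18. Bcl2a1b overlaps Gm29094 and Bax overlaps Gm45808, protein-coding gene models on the same strand. Bcl2a1d and Bcl2 overlap the antisense genes Gm10634 and D630008O14Rik. None of these 4 neighbours has a row in the count table, so reads in the shared stretches would be counted on the member or on nothing.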

How the data were processed

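Stranded poly(A) libraries (TruSeq) of 3 Ahr+/+ and 3 Ahr-/- mice were analysed. The deposited table of raw counts, 1 row per gene symbol, was used as given. The submitters' processing notes name TopHat2, HTSeq, DESeq and the build mm10, without their roles. Whether counting used strand, and how reads matching several genes were treated, is not given in the sources used here. Normalized counts and the authors' own fold changes and p-values were also deposited and were not used. Counts were tested with edgeR 4.0.16 in R 4.3.3 (quasi-likelihood, TMM, genotype alone, genes with at least 10 counts in total, Benjamini-Hochberg over 13682 genes, threshold 0.05), which was tested on simulated data first. The p-values set the genotype difference against the spread between libraries of a genotype, 1 per mouse. Differences between mice and differences in handling are not separated in that spread. No replicates were duplicates. The alternatives were DESeq2 1.42.0, other scalings and filters, a replicate block, a stricter threshold and leaving out each library. Gene models were from GENCODE M21, promoters from RefSeq (GRCm38.p6), and transcripts were aligned with Biopython 1.88 in Python 3.11.15. Figures were drawn with matplotlib 3.10.9. The named genes were all members, every called gene of the pathway lists, Bak1, Bid, Bad, Bmf and Trp53, Ahr and Cyp1a1, and the 3 profiles nearest to the member of smallest p. Bcl2l2, Bcl2a1c and the cell-type markers given by value were named in addition, after their values were seen. The members and lists were chosen with earlier results of these data known.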

Additional observations from a re-analysis of the deposited data

How the results depend on the processing

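Of the 10 members, 6 (Bcl2l1, Mcl1, Bcl2a1b, Bcl2a1d, Bcl2l11 and Pmaip1) kept their direction and their side of the threshold under all 13 alternatives, as did the summed Bcl2a1 rows (log2 fold change 0.64 to 0.70 with a library left out). Bcl2a1a kept its direction and lost its call under DESeq2 (1.25), the replicate block (1.22), the threshold of 0.01 (1.24) and with any library but Ahr-/- replicate 3 left out (1.02 to 1.48 over all 6), and it was not tested when at least 10 counts were required in at least 3 libraries. Bax passed the threshold with library size alone (0.15), with that filter (0.13) and under DESeq2 (0.12). Bbc3 ran from −0.36 to −0.090 and Bcl2 from −0.0079 to 0.049 as libraries were left out, Bcl2 being negative without Ahr-/- replicate 2. Trp53 was positive with library size alone (0.0047), and ran from −0.057 to 0.020 as libraries were left out, being positive without that replicate. The number of members called lay between 5 and 7. At the threshold of 0.01, 1473 genes were called and 783 were higher, and without Ahr-/- replicate 2 the number called was 1664, against 2601 without Ahr-/- replicate 3. The balance of directions varied with the scaling and test. Library size alone gave 2540 called genes, 1621 of them higher, and DESeq2's test gave 2198, with 1110 higher. For the 19 pathway results, called or not, 210 of 247 values kept their direction and side of the threshold, 34 lost a call, 1 gained one and 2 changed sign. Same-numbered libraries correlated at −0.14, 0.24 and −0.18 in their deviations from the genotype means. The highest correlation between libraries of different numbers was 0.39. Whether the numbers pair mice cannot be told from deviations of so few libraries. With the replicate block 2304 genes and 5 members were called. The cause of these shifts was not tested. Depth limits Bcl2a1a, and shared sequence limits each Bcl2a1 row.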
